A study of Rattus norvegicus with 65 samples.

Results

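The double-strand break and Fanconi repair genes described here are 37 rat genes named in a list, covering homologous recombination, the Fanconi pathway and the signalling of broken DNA. They were found by symbol in the deposited count table. Of the 37, 35 had a row among the 14554 genes of the table, and Rad51b and Chek1 are not analysed here. The rule uses symbols and no measured value, but the list was proposed with earlier results of these data known. The lowest count of any of the 35 in any library was 12, for Rad54b, so none of the 35 was at 0 or lost to a further filter on low counts. The deposited table already lacks genes of low count, but Ttn, a marker gene of heart muscle cells, has no row either. Why Rad51b and Chek1 have no row was not tested, and their absence does not show a low level.

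Transcript abundance was measured by polyA RNA sequencing in primary neonatal rat cardiomyocytes, which are heart muscle cells isolated from newborn rats and serum starved overnight before treatment. The cells received 10 mM 5-fluorouracil (5FU, an antimetabolite), 2.5 mM acetaminophen (Ace, a pain reliever) or 1.25 µM doxorubicin (Dox, an anthracycline that intercalates into DNA and inhibits topoisomerase II) for 6 or 24 h. Control cultures received the solvent alone, as DMSO1 (1% DMSO) for 5FU and as DMSO2 (0.25% DMSO) for both Ace and Dox. The 65 libraries formed 10 groups, with 7 libraries in each DMSO2 and Dox group and in Ace at 24 h, and 6 in each of the others. Hearts of several litters were pooled before plating, so the libraries were parallel cultures of 1 mixed preparation, and all p-values measure only the spread between such cultures. The strain, sex and age in days of the pups are not given in the sources used here.

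A double-strand break is first held and trimmed by the Mre11, Rad50 and Nbn complex with Rbbp8 (CtIP), and is signalled by the kinases Atm and Atr through Mdc1, Rnf8, Rnf168 and Tp53bp1. Brca1, Bard1, Palb2 and Brca2 then act, with the help of Rad51c, Rad51d, Xrcc2 and Xrcc3, in homologous recombination, which copies the sister chromatid and is therefore tied to S and G2 phase. The Fanconi core complex attaches ubiquitin to Fancd2 and Fanci at crosslinked DNA. Cardiomyocytes largely stop dividing soon after birth, while the fibroblasts and endothelial cells of the same cultures can divide.

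Libraries held 14332827 to 25738297 counts. Levels are given as CPM, the counts divided by the library total after TMM scaling, and compare cultures for 1 gene, not 1 gene with another. DEGs were genes at a Benjamini-Hochberg false discovery rate (FDR) below 0.01 in edgeR's quasi-likelihood test, adjusted over all 14554 genes. Values given with an FDR are log2 fold changes of the first named group over its control, with the standard error (SE) where it is printed. Rose, fell and called are used of DEGs only. Markers of cardiomyocytes were abundant everywhere: 11 of them were in the table, the lowest count of any was 634, and their summed level was 23730 to 70500 CPM. Markers of fibroblasts (10 genes, 1947 to 19960 CPM), endothelial cells (8 genes, 25.6 to 367 CPM), macrophages (9 genes, 48.7 to 132 CPM) and smooth muscle and pericytes (6 genes, 342 to 4326 CPM) were measured too, and Cldn5 was the only one of them at 0 in any library (8 libraries). In such bulk samples fewer cells of a type and less RNA per cell cannot be told apart. Libraries were numbered within a group by column order only. Library 1 of DMSO1 at 24 h correlated least with the rest of its group (r = 0.99015 over log2 CPM) and had a summed level of 21 p53 target genes of 4525 CPM, against at most 1999 CPM in the other libraries of its group and 4591 to 4844 CPM in 5FU at 24 h. Library 7 of Dox at 24 h (r = 0.99111) had the highest total. Library 7 of Ace at 24 h had the lowest S phase and G2/M sums of its group, 761 and 517 CPM. A further 3 libraries, all DMSO1, lay nearer to the mean of DMSO2 at the same time than to their own group.

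Promoter sequences are printed for 4 of the genes on which the results turn: Brca1 and Fancg, with the largest increases in Dox at 24 h, Fancl, with the largest decrease there, and Clspn, with the widest range of levels over the 10 groups. They are from RefSeq, build GRCr8, and run 5′ to 3′ along the gene for the 250 bases before its start. They lie at chr10:86977582-86977831 (Brca1, minus strand), chr5:62035788-62036037 (Fancg, minus strand), chr5:144134387-144134636 (Clspn, plus strand) and chr14:104450737-104450986 (Fancl, plus strand). Capitals mark matches, on either strand, to TTGGCGC and TTCCCGC (letters of E2F sites), TTTGAA (letters of the cell cycle homology region) and CCAAT (letters of the CCAAT box).
Brca1: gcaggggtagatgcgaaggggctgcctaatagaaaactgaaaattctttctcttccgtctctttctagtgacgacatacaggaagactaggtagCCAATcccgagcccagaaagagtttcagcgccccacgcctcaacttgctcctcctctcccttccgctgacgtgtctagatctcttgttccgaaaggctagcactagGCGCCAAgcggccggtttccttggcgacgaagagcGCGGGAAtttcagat
Fancg: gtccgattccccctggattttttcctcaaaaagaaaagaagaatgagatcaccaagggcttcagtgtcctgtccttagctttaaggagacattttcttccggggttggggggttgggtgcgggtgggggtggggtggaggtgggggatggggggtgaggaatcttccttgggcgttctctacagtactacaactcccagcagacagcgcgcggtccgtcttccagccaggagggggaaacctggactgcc
Clspn: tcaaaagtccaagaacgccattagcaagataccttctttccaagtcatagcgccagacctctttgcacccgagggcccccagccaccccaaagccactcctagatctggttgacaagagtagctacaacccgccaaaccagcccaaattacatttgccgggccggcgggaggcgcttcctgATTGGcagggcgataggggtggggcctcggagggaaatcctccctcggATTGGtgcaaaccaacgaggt
Fancl: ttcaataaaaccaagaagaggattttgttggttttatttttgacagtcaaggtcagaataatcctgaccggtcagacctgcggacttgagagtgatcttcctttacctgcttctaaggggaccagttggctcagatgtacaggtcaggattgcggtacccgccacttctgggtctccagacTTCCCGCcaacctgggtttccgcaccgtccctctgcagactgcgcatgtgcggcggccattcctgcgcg
Of the 35 genes, 29 matched an entry in the promoter table. TTGGCGC or TTCCCGC was present in 9 of the 29 (31%), namely Atm, Bard1, Brca1, Fancc, Fancf, Fancl, Rad50, Rad51d and Topbp1, against 5.32% of all 27457 promoters. CCAAT was present in 9 (31%, against 34.3% of all) and TTTGAA in 3 (10.3%, against 16%). The first E2F motif, read on the opposite strand, shares 4 letters with the CCAAT box, and in 1 promoter, that of Fancf, matches to different motifs overlapped. The Brca1 promoter held 1 match to each E2F motif and 1 to the CCAAT box, that of Clspn 2 to CCAAT and that of Fancl 1 to TTCCCGC, while that of Fancg held none. These matches are descriptions of letters, and no binding was measured.

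Each drug was compared with its own solvent control at each time, to ask how the transcripts of these repair genes responded to the drugs. In Ace nearly all members that changed rose, whereas 5FU and Dox moved members in both directions. In Ace at 24 h, 24 of the 35 rose and none fell by edgeR with all groups fitted together, and 25 rose and none fell by DESeq2. An edgeR fit of the compared groups alone called 25 higher and 1 lower, and an FDR below 0.1 gave 27 higher and 1 lower. In the fit of all groups, 1 member was lower at an unadjusted p below 0.05, Nbn (-0.13). That fit called 24 also without Ace library 7. Of all genes, 37.2% were DEGs in that comparison, 18.2% higher and 19.1% lower. The median log2 fold change was 0.64 over the members and about 0 over all genes. In Ace at 6 h, 13 rose and 1 fell, with 31.7% of all genes called (16.5% higher and 15.2% lower) and a median of 0.22. With scaling by library size only, the median of all genes shifted by more than 0.1 in 3 comparisons: by -0.15 in Dox at 6 h, by 0.20 in the Dox effect at 24 h minus 6 h and by -0.12 in Dox against Ace at 6 h.

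In 5FU at 6 h, 6 members rose and 11 fell, where 47.9% of all genes were called (23.4% higher, 24.5% lower). With scaling by library size only, the split was 4 against 15. In 5FU at 24 h, 8 rose and 7 fell, where 55.8% of all genes were called (28% higher, 27.8% lower), and 10 rose and 7 fell without DMSO1 library 1. In Dox at 6 h, 7 rose and 13 fell, where 64.2% were called (31.5% higher, 32.7% lower). In Dox at 24 h, 14 rose and 15 fell, where 81.4% were called (40.4% higher, 41% lower), and 15 rose and 14 fell without Dox library 7. The shares of members called in 5FU at 6 h and in Dox at both times, 48.6%, 57.1% and 82.9%, lay near those of all genes, and that in 5FU at 24 h, 42.9%, lay below it. The plot of shares called shows the higher calls in Ace as the widest gap from all genes among the drug comparisons. Medians over the members were -0.18 and 0.12 in 5FU and -0.10 and 0.02 in Dox at 6 and 24 h.

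**Figure D1:**
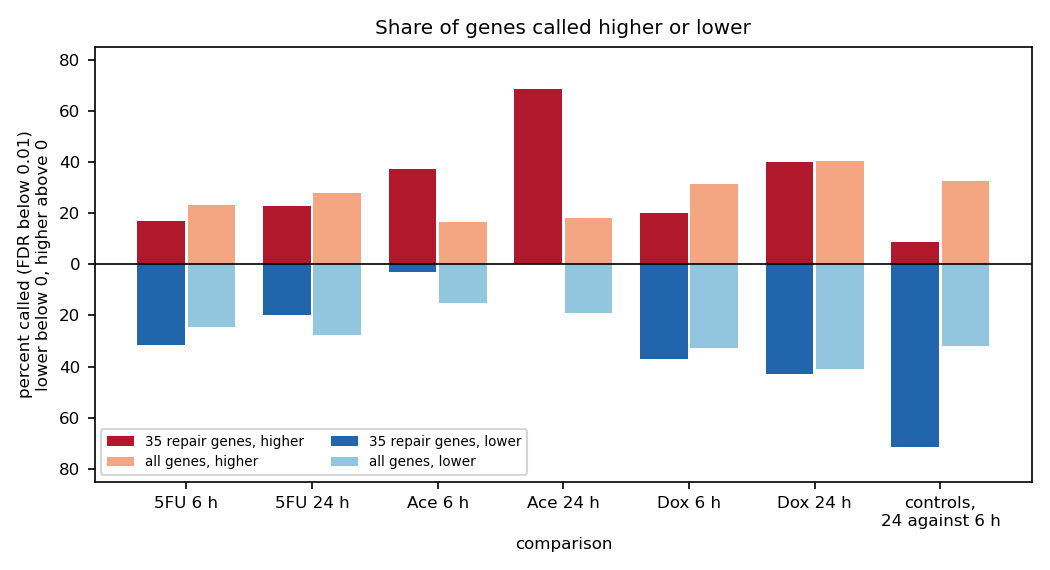
Percent of the 35 repair genes (dark bars) and of all 14554 genes (light bars) called higher (upward) or lower (downward) at an FDR below 0.01, for each drug against its DMSO control and for the controls at 24 h against 6 h. Among Ace libraries at 24 h 68.6% of the repair genes were higher against 18.2% of all genes, and in the controls 71.4% were lower at 24 h against 31.9% of all genes.

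Every member was a DEG in at least 1 of the 6 drug comparisons, none in all 6, and 18 (51.4%) rose in 1 comparison and fell in another. Over all genes these shares were 96.8%, 5.99% and 38.9%, so being called at least once was ordinary here. The heat map of log2 fold changes shows these mixed directions by role. Tp53bp1, Fancl, Fancf, Nbn and Atm rose in none of the 6, whereas Palb2 and Xrcc3 rose in 5 each and fell in none. Such tallies per gene were not made over all genes, so they cannot show a trait of these members.

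**Figure D2:**
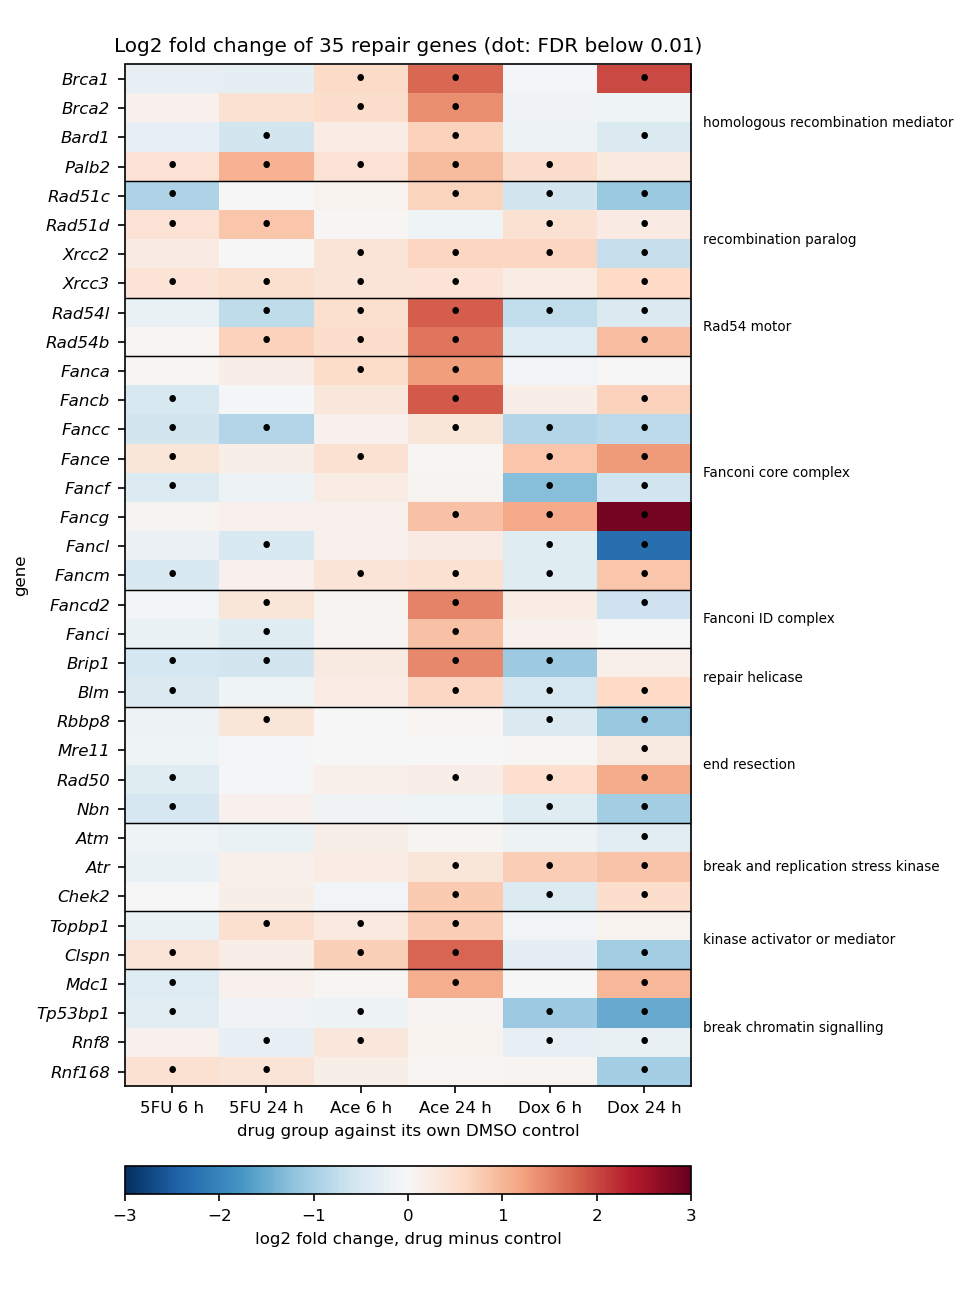
Log2 fold change (colour, drug minus its DMSO control) of 35 repair genes (rows, grouped by role) in 6 comparisons (columns), with a dot where the FDR was below 0.01. The Ace 24 h column is red or near white throughout, from -0.13 to 1.83, while the Dox 24 h column runs from -2.25 for Fancl to 2.87 for Fancg.

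Among the mediators of homologous recombination, Brca1 rose in Ace and in late Dox. Brca1 is a ubiquitin ligase subunit that promotes end resection and recruits Palb2. Its level at 24 h was 6.10–7.05 CPM (median 6.39) in DMSO2, 15–25 CPM (median 21.9) in Ace and 20.2–30.5 CPM (median 26.4) in Dox. Both drug groups lay wholly above the control. The log2 fold change was 1.72 (SE 0.0993, FDR 1.19e-22) in Ace and 1.99 (SE 0.0994, FDR 7.4e-28) in Dox. At 6 h Brca1 was 14.9–19.5 CPM (median 18.1) in Ace against 10.8–12.9 CPM (median 11.6) in DMSO2, with no overlap, a change of 0.57 (SE 0.0978, FDR 2.33e-06). In Dox at 6 h the change was -0.02, which did not pass. In 5FU it was -0.24 and -0.30 at 6 and 24 h, and neither passed. Group medians of Brca1 ran from 5.44 CPM in 5FU at 24 h to 26.4 CPM in Dox at 24 h.

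Brca2, a mediator that binds single-stranded DNA at resected ends, rose in Ace only among the calls made. It measured 14.8–25.9 CPM (median 22.5) in Ace against 7.10–8.97 CPM (median 8.33) in DMSO2 at 24 h, with groups that did not overlap and a log2 fold change of 1.4 (SE 0.154, FDR 1.3e-11). At 6 h in Ace the change was 0.53 (SE 0.157, FDR 0.00426), the groups overlapped, and the call was lost without Ace library 1 (0.43), 2 or 6 or DMSO2 library 5. In Dox and 5FU Brca2 changed by -0.12 to 0.46 and passed nowhere. Palb2, the bridge between Brca1 and Brca2, rose in 5 of the 6 comparisons. Under 5FU for 24 h it was 5.83–6.58 CPM (median 6.12) against 2.39–4.24 CPM (median 2.80) in DMSO1, without overlap, a log2 fold change of 1.04 (SE 0.134, FDR 6.94e-10). In 5FU at 6 h the change was 0.42 (SE 0.12, FDR 0.00199), the groups overlapped, and the call was lost without 5FU library 4 or DMSO1 library 5 (0.35). It was 0.42 (FDR 0.00227) in Ace at 6 h, 0.95 (FDR 1.25e-09) in Ace at 24 h and 0.53 (FDR 3.14e-05) in Dox at 6 h, each without overlap of the groups. The change in Dox at 24 h was 0.29, which did not pass. Bard1, the partner of Brca1 in its ligase, rose in Ace at 24 h (0.69, FDR 2.47e-08) and fell in 5FU and Dox at 24 h. With 5FU at 24 h it was 7.77–9.45 CPM (median 8.93) against 10.9–15.1 CPM (median 12.7), without overlap, a log2 fold change of -0.56 (SE 0.113, FDR 1.61e-05). Bard1 changed in Dox at 24 h by -0.42 (FDR 0.000184), and the groups overlapped. Group medians of Brca2 ran from 7.77 CPM in Dox at 24 h to 22.5 CPM in Ace at 24 h. Group medians of Palb2 ran from 2.80 CPM in DMSO1 at 24 h to 8.90 CPM in Dox at 6 h. Group medians of Bard1 ran from 8.93 CPM in 5FU at 24 h to 21 CPM in Ace at 24 h.

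Rad51c, Rad51d, Xrcc2 and Xrcc3, related proteins that assist homologous recombination, differed among themselves. Rad51c fell in 5FU at 6 h from 6.98–10.1 CPM (median 8.79) to 3.42–5.09 CPM (median 4.75), without overlap, a log2 fold change of -0.93 (SE 0.106, FDR 2.24e-11). In Dox it fell at both times: at 24 h from 4.14–5.13 CPM (median 4.84) to 1.74–2.65 CPM (median 2.14), again without overlap (-1.12, SE 0.112, FDR 3.38e-14), with a change of -0.54 (FDR 1.63e-06) at 6 h. It rose in Ace at 24 h (0.67, FDR 5.54e-08). Rad51d rose in both 5FU and Dox. In 5FU it reached 20.1–23.6 CPM (median 22.4) against 15.2–17.6 CPM (median 16.4) at 6 h (0.44, SE 0.0868, FDR 1.86e-05) and 29.8–36.9 CPM (median 33.4) against 16.1–26.4 CPM (median 17.2) at 24 h (0.83, SE 0.0859, FDR 6.52e-13), without overlap at either time. The highest DMSO1 value at 24 h was library 1, and without it the 24 h change was 0.96. In Dox Rad51d rose by 0.46 (FDR 1e-06) at 6 h and 0.25 (FDR 0.00468) at 24 h. The later call rested on single libraries: without Dox library 7, at 27.8 CPM against at most 18.7 CPM in the others, the change was 0.16 and was not called, and it was lost too without DMSO2 library 5 or 7. Group medians of Rad51c ran from 2.14 CPM in Dox at 24 h to 9.02 CPM in Ace at 6 h. Group medians of Rad51d ran from 15.7 CPM in Ace at 24 h to 33.4 CPM in 5FU at 24 h.

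Xrcc2, which forms a complex with Rad51d, rose in early Dox and fell in late Dox. At 6 h it was 11.8–19.7 CPM (median 12.4) in Dox against 7.94–9.70 CPM (median 9.01) in DMSO2 (0.64, SE 0.0935, FDR 1.49e-08), and at 24 h 2.32–3.81 CPM (median 3.03) against 4.33–5.53 CPM (median 4.95) (-0.69, SE 0.112, FDR 1.03e-07), with the groups apart at both times. The difference between the Dox effects at the 2 times was -1.33 (FDR 2.64e-12). In Ace it rose at both times (0.39, FDR 0.00081 and 0.64, FDR 3.48e-07), and in 5FU it changed by 0.24 and 0.02, neither passing. Xrcc3, the partner of Rad51c, had one of the narrowest ranges, with group medians of 4.34 to 7.33 CPM. It rose in 5FU from 4.15–5.40 CPM (median 4.49) to 5.39–6.63 CPM (median 6.39) at 6 h (0.41, SE 0.103, FDR 0.000543, overlapping) and from 3.91–5.29 CPM (median 4.83) to 5.98–7.25 CPM (median 6.36) at 24 h (0.49, SE 0.105, FDR 4.69e-05, without overlap). Klc1, which overlaps Xrcc3 in the annotation, rose as well, with changes of 0.14 and 0.52 at these times. Xrcc3 also rose in Ace (0.38, FDR 0.00161 and 0.42, FDR 0.000187) and in Dox at 24 h (0.59, FDR 9.65e-08), and was 0.23 in Dox at 6 h, which did not pass. Klc1 fell in Dox at 24 h (-0.10, FDR 0.00827). It did not pass in Ace or in Dox at 6 h, with changes of -0.02 to 0.11. Group medians of Xrcc2 ran from 3.03 CPM in Dox at 24 h to 13.5 CPM in 5FU at 6 h.

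Rad54l and Rad54b, motor proteins that help strand invasion of the template, both rose in Ace. At 24 h Rad54l was 5.29–8.58 CPM (median 7.38) in Ace and 1.71–2.51 CPM (median 2.11) in DMSO2, and the groups were far apart (1.81, SE 0.115, FDR 9.94e-21). With 5FU at 24 h it fell from 2.30–3.31 CPM (median 2.41) to 1.0–1.96 CPM (median 1.65), without overlap, by a log2 fold change of -0.76 (SE 0.142, FDR 3.91e-06). It fell in Dox as well (-0.73, FDR 3.72e-08 at 6 h and -0.43, FDR 0.00285 at 24 h), but the later call was lost without Dox library 7 (-0.33) or DMSO2 library 4. Rad54b rose in 5FU at 24 h, from 0.838–1.39 CPM (median 1.08) to 1.26–2.29 CPM (median 1.69), with overlap (0.7, SE 0.182, FDR 0.000641). It rose also in Ace at 6 h (0.52, FDR 0.00361, lost without DMSO2 library 2 or 3), in Ace at 24 h (1.59, FDR 5.14e-13) and in Dox at 24 h (0.92, FDR 1.21e-06). For Rad54l in Ace at 6 h the change was 0.49 (FDR 0.000137). Group medians of Rad54l ran from 1.64 CPM in Dox at 24 h to 8.04 CPM in Ace at 6 h. Group medians of Rad54b ran from 0.994 CPM in DMSO2 at 24 h to 3.20 CPM in Ace at 24 h.

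**Figure D3:**
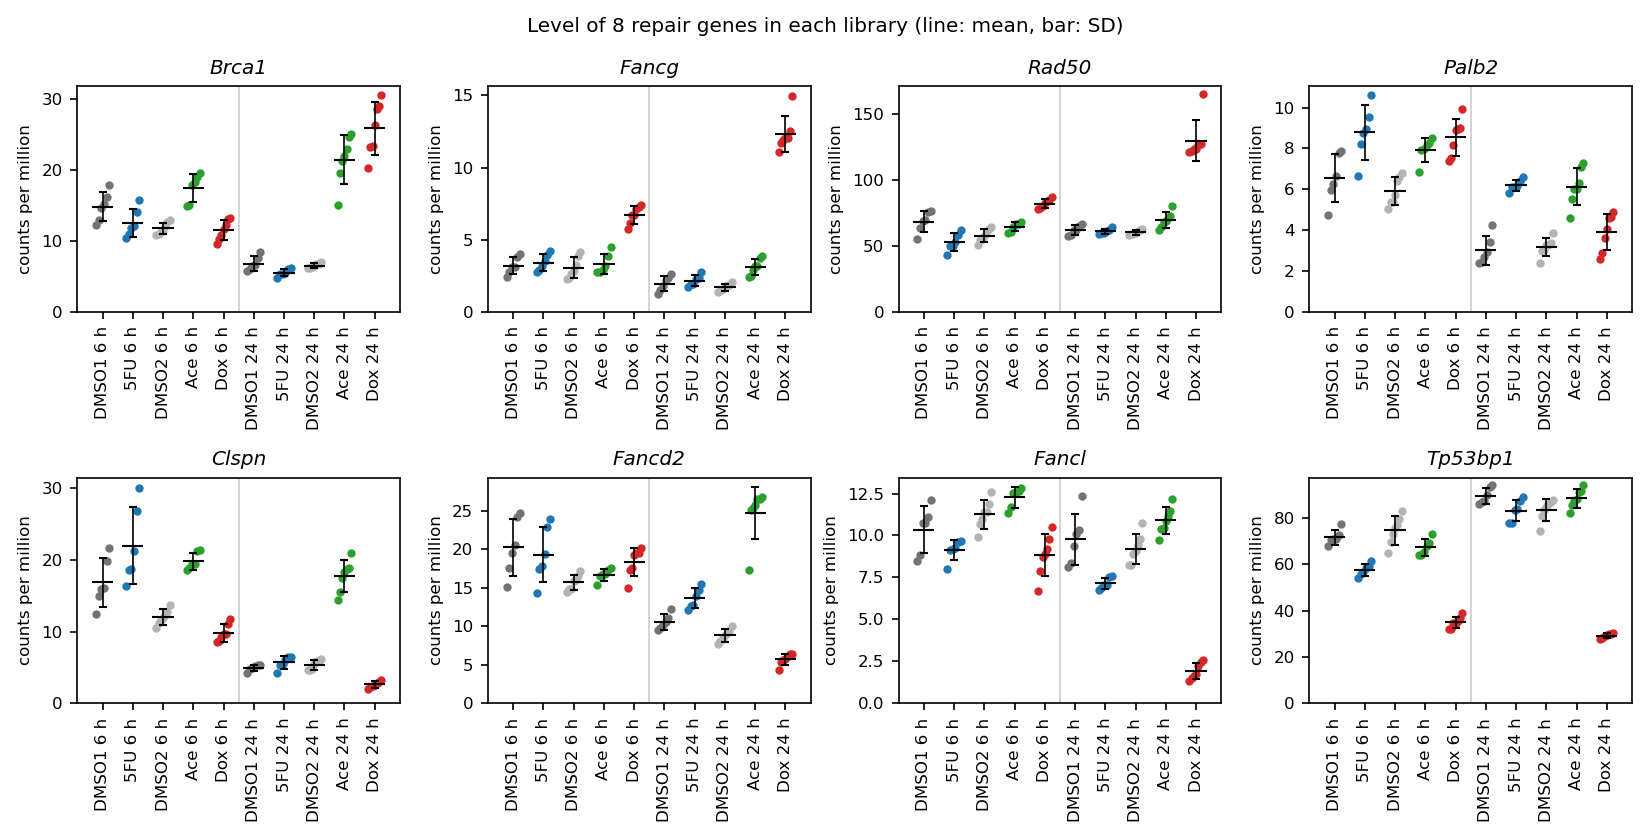
CPM (vertical axis, from 0) of 8 repair genes in every library of the 10 groups (horizontal axis, 6 h left and 24 h right of the grey line), with the mean as a line and the SD as a bar. At 24 h the Dox libraries stand above all others for Fancg (11.1 to 15 CPM) and Rad50 (121 to 165 CPM) and below all others for Fancl, Clspn and Tp53bp1.

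The Fanconi core complex is a ubiquitin ligase of many subunits. In Dox at 24 h, 4 of its 8 measured genes rose and 3 fell. Of all genes, 40.4% rose and 41% fell in that comparison, so such a mix was ordinary. Fancg, a scaffold subunit, rose from 2.24–4.16 CPM (median 2.82) to 5.70–7.38 CPM (median 6.69) at 6 h (1.13, SE 0.13, FDR 1.26e-11) and from 1.38–2.03 CPM (median 1.71) to 11.1–15 CPM (median 12.1) at 24 h (2.87, SE 0.138, FDR 1.22e-28). The later change was 7.31-fold and the groups did not overlap at either time. Fancg rose in Ace at 24 h by 0.87 (FDR 1.14e-06), and in 5FU it changed by 0.09 and 0.14, which did not pass. Fancl, the catalytic subunit, went the other way, from 8.21–10.7 CPM (median 9.08) to 1.33–2.55 CPM (median 1.76) in Dox at 24 h. This was a fall to less than every control library, with a log2 fold change of -2.25 (SE 0.105, FDR 2.48e-29). Vrk2, a gene that overlaps Fancl in the annotation, changed by 0.39 (FDR 7.53e-06) in the same comparison. At 6 h in Dox Fancl changed by -0.35 (FDR 0.000272), and in 5FU at 24 h by -0.45 (FDR 5.45e-05). Group medians of Fancg ran from 1.71 CPM in DMSO2 at 24 h to 12.1 CPM in Dox at 24 h. Group medians of Fancl ran from 1.76 CPM in Dox at 24 h to 12.6 CPM in Ace at 6 h.

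Fance, the subunit that contacts Fancd2, rose in Dox to 33–43.5 CPM (median 36.4) from 18.3–23.1 CPM (median 20.9) at 6 h (0.83, SE 0.0639, FDR 2.62e-18) and to 42.4–57.6 CPM (median 52.7) from 19.4–22.8 CPM (median 21.3) at 24 h (1.28, SE 0.0637, FDR 5.68e-28), with no overlap at either time. It rose by 0.37 (FDR 6.99e-06) in 5FU and 0.46 (FDR 5.51e-08) in Ace at 6 h, and was 0.17 and 0.04 at 24 h, not called. Fancf, an adaptor subunit, fell in Dox at 6 h from 5.75–7.83 CPM (median 7.28) to 2.22–3.84 CPM (median 2.88), without overlap (-1.27, SE 0.134, FDR 8.05e-13), with a change of -0.59 (FDR 5.65e-05) at 24 h. In 5FU at 6 h it changed by -0.42 (FDR 0.00701), with overlap, and that call was lost without 5FU library 4 or 6 (-0.31) or DMSO1 library 3, 4 or 5. Fancc, its partner in the complex, fell in 4 comparisons. In 5FU it went from 6.26–7.77 CPM (median 6.72) to 4.33–5.22 CPM (median 4.44) at 6 h (-0.56, SE 0.112, FDR 1.91e-05) and from 2.62–5.22 CPM (median 5.08) to 2.05–2.78 CPM (median 2.47) at 24 h (-0.88, SE 0.123, FDR 6.66e-09). Aopep, which overlaps Fancc in the annotation, fell too, by 1.39 at 6 h and 0.77 at 24 h. The Fancc groups overlapped at 24 h only, where DMSO1 library 1 was the low value and the change without it was -1.0. In Dox at 6 h Fancc fell from 5.86–6.83 CPM (median 6.43) to 2.99–3.91 CPM (median 3.51) (-0.89, SE 0.107, FDR 6.51e-11, without overlap) with a change of -0.79 (FDR 2.79e-09) at 24 h. Fancc rose in Ace at 24 h by 0.37 (FDR 0.00224). Aopep did not pass in Dox (-0.12 at 6 h and 0.16 at 24 h) and fell in Ace at 24 h (-0.43, FDR 0.00192). Group medians of Fance ran from 18.4 CPM in DMSO1 at 6 h to 52.7 CPM in Dox at 24 h. Group medians of Fancf ran from 2.88 CPM in Dox at 6 h to 8.28 CPM in Ace at 6 h. Group medians of Fancc ran from 2.47 CPM in 5FU at 24 h to 6.72 CPM in DMSO1 at 6 h.

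Of the other core genes, Fancb, the stabiliser of Fancl, had the largest Ace change of all members. It was 4.11–7.61 CPM (median 6.65) in Ace against 1.55–1.99 CPM (median 1.66) in DMSO2 at 24 h, without overlap (1.83, SE 0.159, FDR 2.52e-15). It rose in Dox at 24 h by 0.69 (FDR 0.000161), with overlap. Its fall in 5FU at 6 h (-0.49, FDR 0.00872) was lost when any 1 of 9 of the 12 libraries was left out (5FU libraries 1 to 5 and DMSO1 libraries 2 to 5, with values of -0.60 to -0.41 over all 12). Fanca, a scaffold subunit mutated in many Fanconi patients, rose in Ace at 6 h from 6.33–8.91 CPM (median 7.58) to 9.63–12 CPM (median 10.8), without overlap (0.56, SE 0.0832, FDR 1.08e-07), and at 24 h by 1.26 (FDR 1.24e-19). In 5FU and Dox it changed by -0.09 to 0.20 and passed nowhere. Fancm, a DNA translocase that anchors the complex, fell at 6 h in 5FU (-0.45, FDR 1.56e-06) and Dox (-0.36, FDR 2.69e-05) and rose at 24 h in Dox (0.82, FDR 8.99e-16). The Dox effects at the 2 times differed by 1.18 (FDR 1.56e-15). In Ace it rose at both times (0.38, FDR 2.53e-05 and 0.46, FDR 4.82e-07). Group medians of Fancb ran from 1.66 CPM in DMSO2 at 24 h to 6.65 CPM in Ace at 24 h. Group medians of Fanca ran from 3.85 CPM in Dox at 24 h to 10.8 CPM in Ace at 6 h. Group medians of Fancm ran from 16.1 CPM in DMSO2 at 24 h to 29.2 CPM in Dox at 24 h.

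Fancd2 and Fanci, the pair to which the core complex attaches ubiquitin, both rose in Ace at 24 h. Fancd2 was 17.3–26.8 CPM (median 25.8) in Ace, 7.76–10.1 CPM (median 8.82) in DMSO2 and 4.32–6.45 CPM (median 5.75) in Dox. The 3 groups did not overlap, with Ace above and Dox below the control (1.49, FDR 8.85e-21 and -0.63, FDR 1.9e-07). The lowest Ace library was number 7, at 17.3 CPM, and without it the change was 1.56. Fancd2 rose in 5FU at 24 h by 0.37 (FDR 0.00162), with overlap. Fanci rose in Ace at 24 h (0.88, FDR 3.14e-13), fell in 5FU at 24 h (-0.35, FDR 0.0019, with overlap), and was -0.01 in Dox, not called. Polg, which overlaps Fanci in the annotation, rose by 0.42 (FDR 3.98e-12) in Ace at 24 h and by 0.37 (FDR 1.62e-09) in 5FU at 24 h. Group medians of Fancd2 ran from 5.75 CPM in Dox at 24 h to 25.8 CPM in Ace at 24 h. Group medians of Fanci ran from 7.90 CPM in 5FU at 24 h to 21.7 CPM in DMSO1 at 6 h.

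Brip1 and Blm are helicases, the first a Brca1 partner of the Fanconi pathway and the second a dissolver of recombination intermediates. Brip1 fell in 5FU from 7.25–10.2 CPM (median 8.21) to 4.81–7.41 CPM (median 6.11) at 6 h (-0.52, SE 0.103, FDR 1.78e-05, overlapping) and from 3.72–5.16 CPM (median 4.61) to 2.73–3.36 CPM (median 3.03) at 24 h (-0.55, SE 0.117, FDR 3.37e-05, without overlap). In Dox at 6 h it fell from 6.33–7.80 CPM (median 6.85) to 2.50–4.09 CPM (median 2.99), without overlap (-1.08, SE 0.103, FDR 1.65e-14), and at 24 h it was 0.15, not called. Ace raised it at 24 h to 8.51–12.5 CPM (median 10.2) from 3.37–4.57 CPM (median 3.65) (1.43, FDR 2.84e-19). Blm fell at 6 h in 5FU (-0.44, FDR 2.23e-05) and Dox (-0.49, FDR 5.63e-07) and rose at 24 h in Ace (0.63, FDR 1.01e-08) and Dox (0.6, FDR 7.3e-09). Its libraries in Dox at 24 h ran from 7.18 to 16 CPM and overlapped those of DMSO2. Group medians of Brip1 ran from 2.99 CPM in Dox at 6 h to 10.2 CPM in Ace at 24 h. Group medians of Blm ran from 6.53 CPM in 5FU at 24 h to 17.2 CPM in Ace at 6 h.

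Of the 4 end resection genes, Rad50 and Mre11 rose and Nbn and Rbbp8 fell in Dox at 24 h. With 40.4% of all genes higher and 41% lower in that comparison, such a mix was ordinary. Rad50, the ATPase that tethers broken ends, was 121–165 CPM (median 124) in Dox and 58.3–62.9 CPM (median 59.8) in DMSO2 at 24 h, without overlap (1.11, SE 0.0625, FDR 3.59e-25). The highest value was Dox library 7, and leaving out any 1 library gave 1.07 to 1.15. At 6 h Rad50 rose in Dox (0.51, FDR 1.34e-10) and fell in 5FU (-0.37, FDR 3.64e-06), and these effects differed by 0.88 (FDR 1.39e-12). Rad50 changed in Ace at 24 h by 0.21 (FDR 0.00493), a call lost without Ace library 1 or DMSO2 library 1 or 4 (0.18 to 0.24 over all 14 omissions). Nbn, the third subunit and the link to Atm, fell in 5FU at 6 h from 49.9–60.4 CPM (median 51.7) to 35.1–39.4 CPM (median 37.1), without overlap (-0.51, SE 0.0558, FDR 5.09e-12). In Dox it fell at both times (-0.36, FDR 8.99e-09 and -1.01, FDR 2.06e-26), to 19.1–23.8 CPM (median 21.7) at 24 h. Rbbp8, which activates the Mre11 nuclease, went from 21.7–24.4 CPM (median 22.8) to 7.50–12 CPM (median 10.8) in Dox at 24 h, without overlap (-1.13, SE 0.0686, FDR 1.34e-23), with a change of -0.44 (FDR 8.69e-09) at 6 h. Rbbp8 rose in 5FU at 24 h by 0.36 (FDR 8.56e-06). Mre11, the nuclease itself, held group medians of 32.7 to 39.4 CPM and was called once, in Dox at 24 h (0.27, FDR 6.4e-05), with overlapping groups. Group medians of Rad50 ran from 51.5 CPM in 5FU at 6 h to 124 CPM in Dox at 24 h. Group medians of Nbn ran from 21.7 CPM in Dox at 24 h to 51.7 CPM in DMSO1 at 6 h. Group medians of Rbbp8 ran from 10.8 CPM in Dox at 24 h to 32.1 CPM in Ace at 6 h.

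Of the kinases, Atr, which answers to single-stranded DNA, rose in Dox at 6 h from 16.6–26.6 CPM (median 21.6) to 30.9–40.1 CPM (median 36), without overlap (0.74, SE 0.103, FDR 3.62e-09). At 24 h in Dox it rose by 0.86 (FDR 2.31e-11) and in Ace by 0.37 (FDR 0.00245). Atm, the kinase recruited by the Mre11 complex, was called once, in Dox at 24 h (-0.32, FDR 0.000209), and the groups overlapped. Chek2, the kinase that Atm activates, fell in Dox at 6 h (-0.41, FDR 0.000564) and rose at 24 h (0.52, FDR 1.52e-05), a difference of 0.94 (FDR 2.07e-07). Chek2 rose in Ace at 24 h by 0.78 (FDR 8.77e-09). In 5FU none of the 3 kinases passed, with changes of -0.19 to 0.17. Group medians of Atr ran from 20.8 CPM in DMSO2 at 24 h to 36 CPM in Dox at 6 h. Group medians of Atm ran from 36.2 CPM in Dox at 6 h to 52.7 CPM in Ace at 24 h. Group medians of Chek2 ran from 5.13 CPM in DMSO2 at 24 h to 9.33 CPM in Ace at 24 h.

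Clspn (claspin), the mediator by which Atr activates Chek1, had the widest range of all members, an 8.02-fold ratio between the highest and lowest group medians. In Ace it was 18.6–21.4 CPM (median 19.4) at 6 h against 10.5–13.8 CPM (median 11.9) in DMSO2 (0.72, SE 0.106, FDR 8.55e-08) and 14.4–20.9 CPM (median 18.3) at 24 h against 4.61–6.15 CPM (median 5.42) (1.74, SE 0.111, FDR 1.12e-20). Neither pair overlapped. The Dox level at 24 h was 2.04–3.28 CPM (median 2.49), below every control library (-1.04, FDR 1.56e-10). In 5FU at 6 h it changed by 0.38 (FDR 0.00187), with overlap, a call lost without 5FU library 4 (0.27) or 6 or DMSO1 library 5. Topbp1, which activates Atr, rose in 5FU at 24 h (0.48, FDR 4.82e-06), in Ace at 24 h (0.75, FDR 1.42e-11) and in Ace at 6 h (0.28, FDR 0.00409). The last call was lost without Ace library 1 or 2 or DMSO2 library 7 (0.25 to 0.33 over all 13 omissions). In Dox it was -0.09 and 0.11, not called. Group medians of Clspn ran from 2.49 CPM in Dox at 24 h to 19.99 CPM in 5FU at 6 h. Group medians of Topbp1 ran from 16.7 CPM in DMSO1 at 24 h to 31.4 CPM in DMSO1 at 6 h.

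Among the genes that signal a break on chromatin, Tp53bp1 (53BP1), which holds back end resection, fell most in Dox. It went from 64.8–83.1 CPM (median 75.6) to 32.2–39.1 CPM (median 34.7) at 6 h (-1.1, SE 0.0452, FDR 4.33e-31) and from 74.2–87.7 CPM (median 84.7) to 27.6–30.1 CPM (median 29.6) at 24 h (-1.52, SE 0.0458, FDR 2.21e-39), without overlap at either time. Map1a, which overlaps it in the annotation, fell by 0.83 and 0.92 in the same comparisons, while Tubgcp4, which also overlaps it, changed by 0.02 and 0.20. In 5FU at 6 h Tp53bp1 fell too, with a change of -0.32 (FDR 4.89e-08). In Ace at 6 h it was 64–73.2 CPM (median 66.7) against 64.8–83.1 CPM (median 75.6), overlapping (-0.15, SE 0.0456, FDR 0.00565), and the call was lost in 7 of 13 omissions of 1 library (Ace 1, 3 or 6 and DMSO2 1, 4, 5 or 6, with -0.18 to -0.12 over all 13). Group medians of Tp53bp1 ran from 29.6 CPM in Dox at 24 h to 88.5 CPM in DMSO1 at 24 h.

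Mdc1, the adaptor that binds phosphorylated H2AX, rose at 24 h in Ace (1.09, FDR 1.25e-16) and Dox (1.0, FDR 1.94e-16) and fell in 5FU at 6 h (-0.38, FDR 0.000347). Rnf168, a ubiquitin ligase that recruits Tp53bp1, rose in 5FU at 6 h from 20.9–24.5 CPM (median 23.7) to 29.7–34.3 CPM (median 32.1), without overlap (0.47, SE 0.0583, FDR 4.3e-10), and at 24 h by 0.38 (FDR 9.24e-08). It fell in Dox at 24 h to 9.41–13.3 CPM (median 9.86) from 19.9–22.9 CPM (median 21.2) (-1.02, FDR 7.46e-25). Rnf8, the ligase that acts before it, fell in 5FU at 24 h (-0.26, FDR 0.000296) and in Dox (-0.26, FDR 0.000131 and -0.23, FDR 0.000302) and rose in Ace at 6 h (0.34, FDR 4.01e-06). Group medians of Mdc1 ran from 19.7 CPM in DMSO1 at 24 h to 42.8 CPM in Ace at 24 h. Group medians of Rnf168 ran from 9.86 CPM in Dox at 24 h to 32.1 CPM in 5FU at 6 h. Group medians of Rnf8 ran from 15.8 CPM in Dox at 6 h to 24.8 CPM in Ace at 24 h.

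The controls were compared between times. Those at 24 h differed from those at 6 h in time since isolation, in hours in DMSO and in hours without serum, which cannot be told apart. From 6 to 24 h, averaged over DMSO1 and DMSO2, 25 of the 35 members fell and 3 rose, where 31.9% of all genes were called lower and 32.7% higher (64.6% in all). The median log2 fold change was -0.52. The largest falls were of Clspn (-1.47, FDR 2.29e-24), Rad54l (-1.42, FDR 2.49e-23), Rad54b (-1.22, FDR 4.47e-14) and Blm (-1.03, FDR 1.57e-22). The 3 that rose were Rnf8 (0.31, FDR 3.31e-09), Tp53bp1 (0.24, FDR 1.27e-09) and Atm (0.22, FDR 0.000756). Without DMSO1 library 1 of 24 h, 24 fell and 3 rose. The summed level of 24 S phase genes fell over the same time, from 873 to 935 CPM in DMSO2 at 6 h to 511 to 553 CPM at 24 h, and that of 19 G2/M genes from 690 to 823 CPM to 374 to 453 CPM. Their part in the fall of the repair genes was not tested.

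Set against DMSO2 at 6 h, the 24 h groups lay in different places. The median CPM of the group was below that of DMSO2 at 6 h for 28 of 35 members in DMSO2 at 24 h, with a median ratio of 0.728. For Ace at 24 h it was below for 11, with a median ratio of 1.17, and in Dox at 24 h for 23, with a median ratio of 0.71. Against DMSO1 at 6 h it was below for 29 in DMSO1 at 24 h (median ratio 0.662) and for 28 in 5FU at 24 h (0.704). These ratios share their 6 h controls and are given side by side, without a test. Ace at 24 h held the highest of the 10 group medians for 10 members and the lowest for 1. Dox at 24 h held the highest for 7 and the lowest for 12. Neither these counts nor those of ratios below 1 were made over all genes, so they cannot show a trait of these members.

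**Figure D4:**
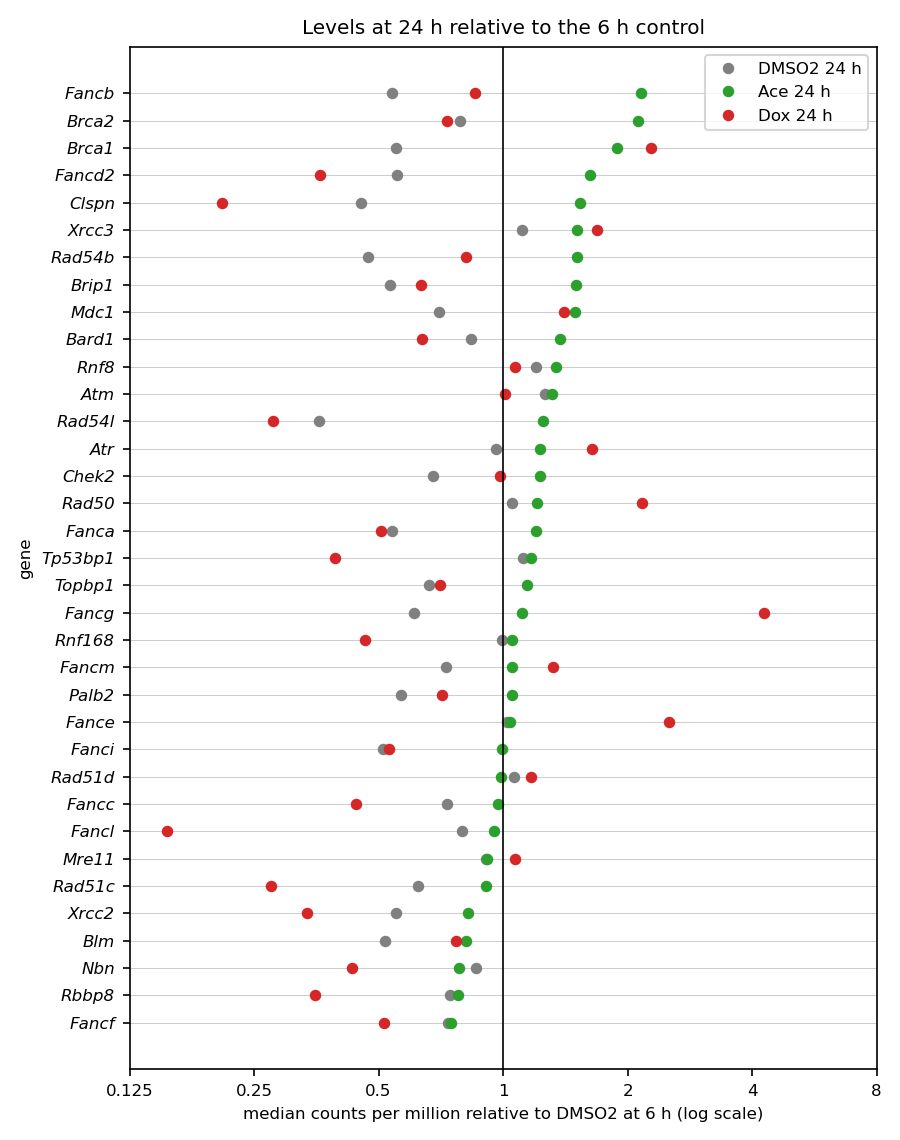
Ratio of the group median CPM at 24 h to the DMSO2 median at 6 h (log axis, line at 1) for 35 repair genes ordered by the Ace ratio, in DMSO2 (grey), Ace (green) and Dox (red). Grey points lie left of 1 for 28 genes, green points for 11 and red points for 23.

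The 2 solvent controls were compared as the background of the drug comparisons. At 6 h, 6 members were higher in DMSO1 than in DMSO2 and none was lower, where 16.5% of all genes were called (9.87% higher and 6.60% lower). They were Clspn (0.49, FDR 0.000368), Fancd2 (0.37, FDR 0.00216), Topbp1 (0.37, FDR 0.000557), Brca1 (0.33, FDR 0.00799), Fancm (0.3, FDR 0.00178) and Rad50 (0.24, FDR 0.00386), and the groups overlapped for all but Topbp1. Without DMSO1 library 6 only 3 were called, and with scaling by library size only 1 was higher and 1 lower. S phase sums of 970 to 1205 CPM in DMSO1 and 873 to 935 CPM in DMSO2 differed in the same direction. Fibroblast markers (7 of 10) and endothelial markers (6 of 8) were lower in DMSO1, and smooth muscle and pericyte markers were higher for 3 of 6 and lower for 2. The part of these lists was not tested. At 24 h edgeR called no member, and DESeq2 none, where 0.433% of all genes were called. At an unadjusted p below 0.05 there were 7 (20% of members, against 16.3% of all genes), of which 6 were higher in DMSO1 (17.1%, against 7.15% of all genes).

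The change of each drug effect with time was tested as an interaction. For Ace, 17 members had a higher log2 fold change at 24 h than at 6 h and 1, Fance (-0.42, FDR 0.000581), a lower one, where 5.58% of all genes were called higher and 6.06% lower (11.6% in all). The largest gains were of Fancb (1.5, FDR 4.62e-07), Fancd2 (1.4, FDR 7.83e-13) and Rad54l (1.32, FDR 1.2e-09). For Dox, 11 were higher and 9 lower (34% and 30.8% of all genes, 64.8% in all), and 15 and 8 with scaling by library size only. Brca1 gained most (2.02, FDR 2.34e-20) and Fancl lost most (-1.9, FDR 2.45e-19). In Dox 14 members (40%) were called in the same direction at both times, against 46.7% of all genes. A further 4 (11.4%, against 8.31% of all genes) were called in opposite directions: Xrcc2, Fancm, Blm and Chek2. For 5FU, 11 were higher and 2 lower (20.3% and 19.2% of all genes, 39.5% in all), led by Rad51c (0.91, FDR 1.39e-06). When only the compared groups were fitted, 6 were higher and 1 lower, and leaving out 1 library gave as few as 9 in all. In 5FU and Ace no member was called by edgeR in opposite directions at the 2 times, against 5.01% and 0.804% of all genes.

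Dox and Ace share DMSO2, so they were compared directly. At 6 h, 21 members were lower in Dox than in Ace and 5 higher, where 31.4% of all genes were lower and 30.6% higher (62.1% in all). At 24 h, 23 were lower and 8 higher, where 39.9% were lower and 40.7% higher (80.6% in all), and the median over the members was -0.68. The widest gaps at 24 h were those of Clspn (-2.77, FDR 1.31e-30), Fancl (-2.49, FDR 6.93e-32), Rad54l (-2.24, FDR 3.97e-26) and Fancd2 (-2.12, FDR 3.8e-29), with the Dox libraries below all Ace libraries. Fancg (2.0, FDR 1.79e-22), Fance (1.24, FDR 2.43e-27) and Rad50 (0.9, FDR 5.12e-21) were higher in Dox, also without overlap. For Brca1 the Dox level exceeded that of Ace by 0.27 (FDR 0.00494), with overlapping groups. The doses of the drugs differ in kind and were not matched, so the contrast compares these treatments only.

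The Dox and 5FU effects, each against its own control, were compared as a difference of differences. At 6 h, 6 members were higher and 8 lower in Dox relative to 5FU (22% and 24% of all genes, 45.9% in all), and with scaling by library size only 4 and 9. The balance turned to 9 higher and 7 lower without DMSO1 library 5. At 24 h, 11 were higher and 12 lower (35.8% and 35.4%, 71.1% in all), and 12 higher and 11 lower with library-size scaling or with DESeq2 size factors. Fancg (2.73, FDR 6.09e-18) and Brca1 (2.29, FDR 4.05e-21) were furthest above, and Fancl (-1.8, FDR 8.62e-18) and Rbbp8 (-1.49, FDR 1.41e-21) furthest below. At 6 h, 8 members fell in both drugs: Rad51c, Fancc, Fancf, Fancm, Brip1, Blm, Nbn and Tp53bp1, which are 72.7% of the falls in 5FU and 61.5% of those in Dox. Over all genes these shares were 53.7% and 40.2%. At 24 h, 3 members rose in 5FU and fell in Dox: Fancd2, Rbbp8 and Rnf168, which are 37.5% of the rises in 5FU and 20% of the falls in Dox, against 34.5% and 23.5% over all genes. For 5FU and Ace at 24 h, 5 members rose in both, which are 62.5% of the rises in 5FU and 20.8% of those in Ace, against 33.4% and 51.4% over all genes. Another 5, namely Bard1, Rad54l, Fancc, Fanci and Brip1, fell in 5FU and rose in Ace, which are 71.4% of the falls and 20.8% of the rises, against 8.08% and 12.4% over all genes. Of all 35 members 68.6% rose in Ace at 24 h. The shares of 5FU rises and of 5FU falls that rose in Ace both lay near that rate. These overlaps were not tested.

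A further list of 72 repair genes outside the 35 gave the setting. It had 36 higher and 4 lower in Ace at 24 h (median 0.21), 26 and 2 in Ace at 6 h, 32 and 31 in Dox at 24 h, 19 and 26 in Dox at 6 h, 28 and 15 in 5FU at 24 h and 21 and 18 in 5FU at 6 h. The largest rises in Ace at 24 h were of the nuclease subunit Eme1 (2.21, FDR 1.58e-17), Rmi2 of the Blm complex (2.12, FDR 1.76e-10) and the Fanconi E2 enzyme Ube2t (1.92, FDR 9.83e-16), and the largest falls those of Parp1 (-0.39), Ercc1 (-0.31) and Lig3 (-0.27). At 6 h in Ace Lig4 (1.05), H2ax (1.01) and Exo1 (0.81) rose most, and only Zswim7 (-0.29) and Ercc1 (-0.27) fell.

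In Dox at 24 h, where 32 of the 72 were higher and 31 lower, 40.4% of all genes were higher and 41% lower. Such a mix was therefore ordinary, and only the 3 largest changes each way are named. Lig4, the ligase of end joining, rose (2.52, FDR 5.09e-36), as did the helicases Recql4 (2.49, FDR 2.22e-34) and Mcm8 (2.26, FDR 2.25e-23). Shld1, a subunit of the shieldin complex that acts with Tp53bp1, fell (-3.28, FDR 5.39e-26), as did the crosslink nuclease Fan1 (-2.12, FDR 7.84e-26) and Prkdc, the kinase of end joining (-1.54, FDR 1.55e-25). At 6 h Lig4 (1.55), Rnf169 (1.12) and Rmi1 (0.92) rose most, and Shld1 (-2.30), Fan1 (-1.32) and Kat5 (-1.24) fell most. In 5FU at 6 h Rnf169 (1.23), Etaa1 (0.76) and Tipin (0.61) rose most and Polm (-0.81), Gen1 (-0.72) and Shld2 (-0.53) fell most. In 5FU at 24 h Ube2t (0.96), Eme1 (0.95) and Rpa2 (0.86) rose most and Prkdc (-1.16), Rad52 (-1.04) and Polm (-0.91) fell most.

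Cell cycle lists moved with the repair genes in some comparisons and against them in others. In Ace at 24 h, 23 of 24 S phase genes and 17 of 19 G2/M genes rose, with sums of 761 to 966 CPM against 511 to 553 CPM and of 517 to 914 CPM against 374 to 453 CPM. In Ace at 6 h, where repair genes mostly rose, 11 S phase genes rose and 15 G2/M genes fell. In Dox at 24 h S phase genes split into 13 higher and 8 lower, and G2/M genes into 6 higher and 7 lower. At 6 h, where more repair genes fell than rose in 5FU and Dox, G2/M genes fell in both (17 and 12 of 19), whereas S phase genes were 7 higher and 1 lower in 5FU and 13 higher and 2 lower in Dox. In 5FU at 24 h S phase genes were 7 higher and 2 lower and G2/M genes 1 higher and 3 lower. The plot of list medians sets these beside the repair genes. Of 21 p53 target genes, 18 rose in Dox at 24 h, 15 in Dox at 6 h, 15 and 14 in 5FU at 24 and 6 h, and 17 and 8 in Ace at 24 and 6 h.

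Fibroblast markers fell at 24 h in Dox (10 of 10, 1947 to 4101 CPM against 15170 to 18960), 5FU (10 of 10, 5201 to 5872 CPM against 10020 to 19960) and Ace (9 of 10, 7307 to 9334 CPM against the same DMSO2 range). Endothelial markers fell in Dox at 24 h (8 of 8, 25.6 to 55.9 CPM against 278 to 367), 5FU (6 of 8) and Ace (5 of 8). Of 11 cardiomyocyte markers, 9 fell and 1 rose in Dox at 24 h (23730 to 31190 CPM against 37610 to 46790). In 5FU at 24 h 6 fell and 2 rose, and in Ace at 24 h 4 fell and 2 rose. Of 9 macrophage markers at 24 h, 8 were lower and 1 higher in Dox, 6 lower and 0 higher in Ace, and 3 lower and 1 higher in 5FU. Of 6 smooth muscle and pericyte markers, 3 were higher and 2 lower in Dox at 24 h. Their median sum there was 1432 CPM, against 825 CPM in DMSO2. In Ace at 24 h 4 of the 6 were lower and 0 higher, and in 5FU at 24 h 4 were lower and 2 higher. Cell type markers moved at 6 h as well. In Dox at 6 h endothelial markers (8 of 8, 87.3 to 139 CPM against 250.2 to 311) and fibroblast markers (6 of 10) fell, cardiomyocyte markers were 7 higher and 3 lower, smooth muscle and pericyte markers 4 higher and 1 lower, and macrophage markers 3 higher and 1 lower. In Ace at 6 h 7 of 10 fibroblast, 3 of 8 endothelial, 2 of 9 macrophage and 1 of 11 cardiomyocyte markers fell, and none of the 5 lists had a rise. At the same time in 5FU 3 fibroblast and 3 endothelial markers fell, cardiomyocyte markers were 2 higher and 1 lower, macrophage markers 2 higher and 2 lower, and smooth muscle and pericyte markers 1 higher and 1 lower. The part of the cell types and of the cell cycle lists in the repair gene changes was not tested.

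**Figure D5:**
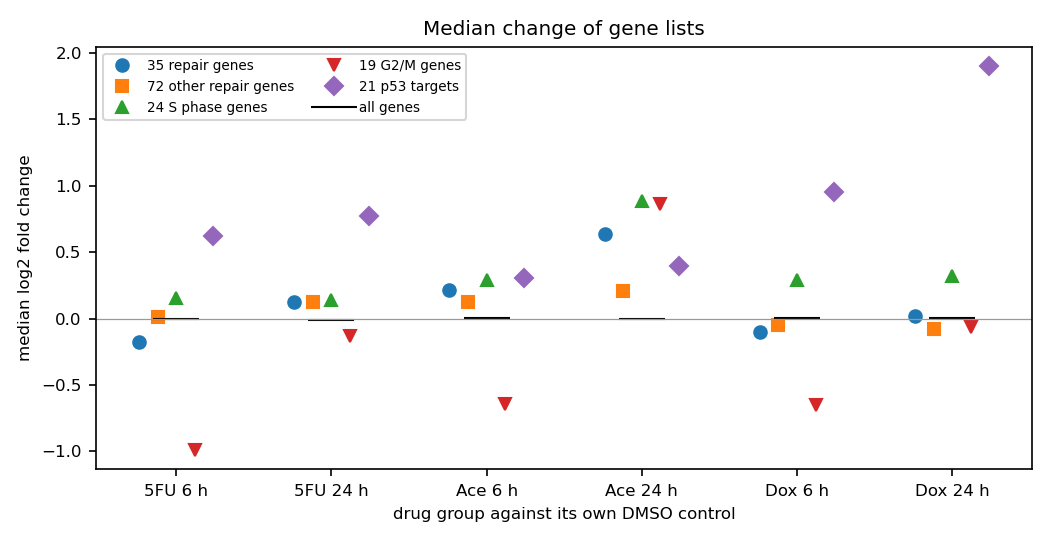
Median log2 fold change (vertical axis) of the 35 repair genes and of 4 other gene lists in the 6 drug comparisons (horizontal axis), with the median of all genes as a black dash. In Ace at 24 h the repair genes (0.64), S phase genes (0.89) and G2/M genes (0.87) lie above 0 together, while in 5FU at 6 h the G2/M genes lie at -0.99.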

How the data were processed

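The authors sequenced polyA RNA as paired reads, estimated transcript abundance with kallisto 0.46.0 (version from the submitters' processing notes) against a rat Ensembl transcriptome, and summed it to Entrez genes with tximport. The deposited table holds estimated counts per gene as whole numbers, without the genes below 10 counts across all samples. Strandedness is not given in the sources used here. Estimated counts divide reads that match transcripts of several genes. In the annotation, 11 members overlap another gene of the table. They are Brca2 (N4bp2l1), Xrcc3 (Klc1), Rad54l (Lrrc41), Rad54b (Fsbp), Fanca (Zfp276) and Fancc (Aopep). The others are Fancl (Vrk2), Fanci (Polg), Mre11 (Ankrd49), Topbp1 (Cdv3) and Tp53bp1 (Tubgcp4 and Map1a). Whether the transcripts of these overlapping genes share sequence was not tested, so the split of reads between them may be uncertain. A workbook of the authors' own fold changes and p-values was not used.

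Entrez identifiers were paired with symbols for 14009 of 14554 genes through a RefSeq table of build GRCr8. Library totals were 14332827 to 25738297 and TMM factors 0.859 to 1.07. No 2 libraries of a group agreed within sampling noise (180 pairs, lowest chi-square per gene 2.91). Counts of 65 libraries were fitted together in edgeR 4.0.16 (R 4.3.3; TMM, quasi-likelihood test, 10 groups, no block), with 16 contrasts, 2-sided tests and Benjamini-Hochberg adjustment over all genes, called below 0.01. The SE is the log2 fold change divided by the root of F. Groups overlap when the lowest value of one is not above the highest of the other. Scripts were tested on simulated data. Alternatives were library-size scaling, DESeq2 1.42.0 (its size factors and its Wald test), filters on low counts, other thresholds, fits of the compared groups alone, and leaving out each library.

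The members and lists were chosen with earlier results of these data known. All members were named; full statistics went, in each drug comparison, to the called members with the 4 largest increases and 4 largest decreases. Of the 72 other repair genes, the 3 largest called changes each way were named, and 1 further gene of the rule is not reported here. Of the cell cycle, p53 target and cell type lists only counts, medians and sums were given, plus markers at 0.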

Additional observations from a re-analysis of the deposited data

Results flagged for a closer look

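Of 350 gene and group combinations, 19 (5.43%) had a highest or lowest library far from the others by Dixon's test, against about 1 in 20 by chance. Library 7 of Ace at 24 h was the low one for Bard1 (14.6 CPM), Fancd2 (17.3 CPM), Fanci (14.7 CPM) and Mdc1 (28.2 CPM). Library 7 of Dox at 24 h was the high one for Rad51d (27.8 CPM), Fancg (15 CPM), Rad50 (165 CPM) and Atr (48.9 CPM). Library 1 of DMSO1 at 24 h was high for Rad51d (26.4 CPM) and Xrcc2 (7.17 CPM) and low for Fancc (2.62 CPM). Single low libraries were those of Palb2 (6.82 CPM) and Xrcc2 (10.1 CPM) in Ace at 6 h, Rad51c (3.42 CPM) and Fancl (8 CPM) in 5FU at 6 h, and Xrcc2 (3.75 CPM) and Mdc1 (19.4 CPM) in 5FU at 24 h. Single high libraries were those of Nbn (60.4 CPM) in DMSO1 at 6 h and Rnf168 (13.3 CPM) in Dox at 24 h.

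Effects differed between times by the interaction test for 13 members in 5FU, 18 in Ace and 20 in Dox. Between Dox and 5FU they differed for 14 members at 6 h and 23 at 24 h. Members called in opposite directions had these differences in log2 fold change. From 6 to 24 h in Dox they were -1.33 for Xrcc2, 1.18 for Fancm, 1.09 for Blm and 0.94 for Chek2. For Dox minus 5FU they were 0.88 for Rad50 at 6 h, and -1.0 for Fancd2, -1.49 for Rbbp8 and -1.40 for Rnf168 at 24 h.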

How the results depend on the processing

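No member called in a drug comparison reversed direction there under any alternative. Changes that were not called were not checked for this. The balance of calls did turn for near-even counts: in Dox at 24 h from 14 higher and 15 lower to 15 and 14 without Dox library 7, and in Dox minus 5FU at 24 h from 11 and 12 to 12 and 11 with DESeq2 size factors and with library-size scaling. In Dox minus 5FU at 6 h it turned from 6 and 8 to 9 and 7 without DMSO1 library 5, and to 1 and 0 at a log2 change of at least 1. Requiring a log2 change of at least 1 left 0 and 1 members in 5FU, 0 and 10 in Ace and 4 and 12 in Dox (6 and 24 h), 0 in DMSO1 against DMSO2 at 6 h, 7 in the controls over time, 0, 8 and 10 in the time interactions of 5FU, Ace and Dox, 1 and 11 in Dox minus 5FU, and 6 and 17 in Dox against Ace. At an FDR below 0.1 there were 23 in Ace at 6 h, 16 in DMSO1 against DMSO2 at 6 h and 22 in Dox minus 5FU at 6 h. Library-size scaling left 2 in DMSO1 against DMSO2 at 6 h, and fitting only the compared groups left 7 in the 5FU interaction. Leaving out 1 library gave 14 to 17 and 15 to 17 members in 5FU, 12 to 14 and 23 to 25 in Ace, 20 to 21 and 28 to 30 in Dox, 3 to 8 in DMSO1 against DMSO2 at 6 h (3 without DMSO1 library 6), 27 to 29 in the controls over time, 9 to 13, 15 to 20 and 20 to 23 in the interactions of 5FU, Ace and Dox, 11 to 16 and 21 to 24 in Dox minus 5FU, and 25 to 27 and 31 in Dox against Ace. Fits that left out a library also had fewer libraries, and why calls were lost was not tested. No paired analysis was possible because the count columns carry no replicate numbers.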
